A study of Homo sapiens with 4 samples.

Results

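The genes of glycolysis and of the hypoxia response are described here in SK-N-SH cells that overexpressed the lncRNA RP5-998N21.4. The members are 38 genes listed by symbol, by a rule that uses no measured value of these libraries, though earlier results of these data were known when the list was made, among the 57820 genes of the count table: 4 transporters of glucose and lactate, 9 enzymes of the upper steps of glycolysis, 6 enzymes of the lower steps, 4 genes that set the fate of pyruvate, 3 subunits of the hypoxia-inducible factors (HIF), 3 hydroxylase or feedback genes of the HIF pathway and 9 other genes of the hypoxia response. All 38 symbols were found in the table, each with 1 gene identifier, and all 38 were among the 20528 genes that passed edgeR's filter on low counts. The table lists 470 transcripts of these genes, and 148 of them had counts.

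SK-N-SH is a long-established neuroblastoma line of human origin. The libraries were made from SK-N-SH cells infected with a recombinant lentivirus in which the EF1a promoter drove RP5-998N21.4 (OE, 2 libraries), and from SK-N-SH cells given the empty lentivirus vector with no insert (vector control, 2 libraries), so that every library came from cells that had met a lentivirus. The vector control libraries (control libraries) carry WT in their titles and wild type as genotype, and the empty vector as treatment, and no label names low oxygen or a change in glucose for any library. Nothing states that the 2 libraries of a condition came from separate cultures, so p-values measure only the spread between these libraries, which may be technical.

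Glycolysis splits glucose into pyruvate and yields ATP without oxygen, and lactate dehydrogenase turns pyruvate into lactate so that the pathway can keep running. Under normal oxygen the EGLN prolyl hydroxylases mark the HIF alpha subunits for breakdown, while under low oxygen these subunits pair with ARNT and raise the transcription of glycolytic enzymes, glucose transporters and genes such as VEGFA and CA9. Tumour cells often run glycolysis also with oxygen present, and HIF alpha activity is set largely at the protein, which RNA-seq does not measure.

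The libraries held from 23785164 to 28307591 counts. RP5-998N21.4 had 32 and 33 counts in the control libraries, against 2407 and 2808 in OE, in accord with the labels. Of 10 markers of sympathetic neuroblastoma cells, TH (the first enzyme of catecholamine synthesis) had 0 counts in all 4 libraries, which allows up to 3 counts in each, and the other 9 were higher in both OE libraries than in both vector control libraries. Their summed level was 590 and 659 CPM (counts per 1000000 counts of the TMM-normalized library) in the vector control and 1008 and 971 CPM in OE. Of 6 mesenchymal-state markers, 2 were higher and 3 lower in both OE libraries, with a summed level from 1776 to 2756 CPM that overlapped between the conditions. Of 8 markers of immune, epithelial, endothelial, glial and liver cells found in the table, 5 had no count in any library, and the 8 summed to between 0.717 and 2.04 CPM. The part of the lineage markers in the results below was not tested. In bulk samples, fewer cells of a type and less RNA per cell cannot be told apart.

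The 38 genes held values in both directions. At the thresholds of the study (edgeR adjusted p under 0.01, log2 fold change beyond 0.5 in either direction), 0 of 38 members were called, and 0% of all genes tested were. At an adjusted p under 0.05 with the same fold, 1 member was called, LDHA, where 0.594% of all genes were. At an unadjusted p under 0.05, 9 members (23.7%) passed against a background of 20.8%. Of these, 3 were higher in OE (7.89% of members, background 10.1%) and 6 were lower (15.8% of members, background 10.7%). DESeq2 at the same thresholds called 5 members (13.2%), HK2 upward and HK1, ALDOA, PKM and LDHA downward, where it called 8.77% of all genes. The OE libraries did not overlap the control libraries in 22 members (57.9%, background 55.4%), above them in 8 (background 27.8%) and below them in 14 (background 27.6%). The median log2 fold change of the members was -0.09 (-0.23 without the first control library and 0.0389 without the second), beside 0.01 for all genes tested, and 15 were positive and 23 negative. These shares lie near the background, so the counts are no result about the members as a set, and the values of the single genes follow. With 2 libraries against 2, an exact two-sided permutation test of a single value cannot give a p below 0.333.

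**Figure D1:**
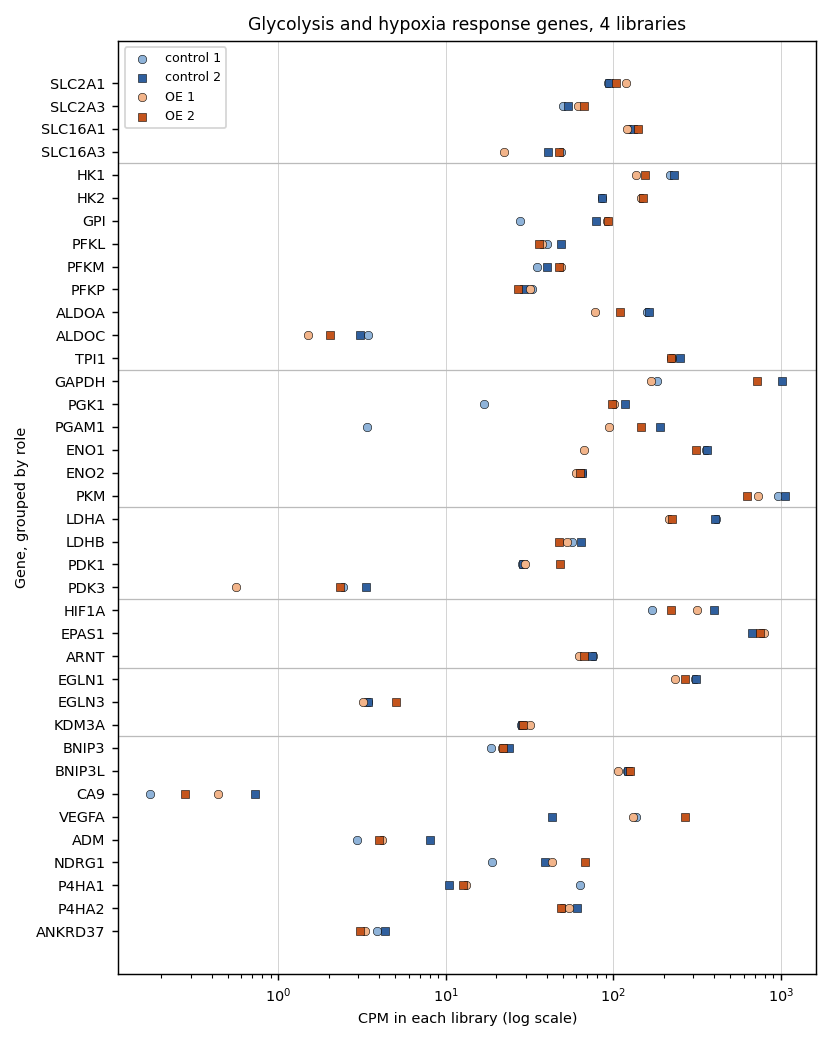
Level of each of the 38 genes in each library, in CPM on a log scale, with the genes in rows grouped by role (grey lines), vector control libraries in blue and OE libraries in orange. LDHA and HK2 showed 2 tight pairs of points apart from each other, while PGAM1, PGK1, GAPDH, P4HA1 and VEGFA had wide gaps between libraries of the same condition.

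**Figure D2:**
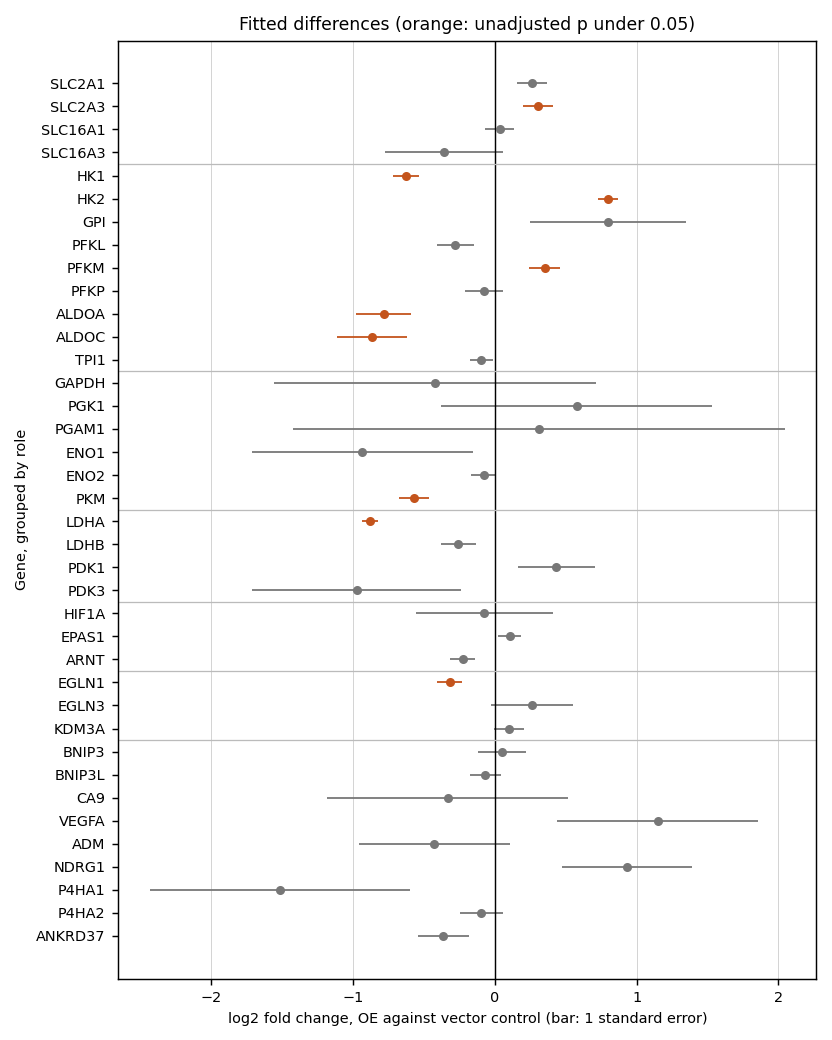
Fitted log2 fold change of each gene, OE against vector control, with 1 standard error, in the same order. The 9 genes with an unadjusted p under 0.05 (orange) ranged from -0.88 in LDHA to 0.80 in HK2, and the widest error was that of PGAM1 (1.73).

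Among the 38 genes the smallest p was that of a lactate dehydrogenase gene. LDHA, the muscle-type subunit that favours the making of lactate, lies on chromosome 11 (18416107 to 18429972, plus strand, GRCh37). LDHA had 9549 and 9481 counts in the control libraries, against 5428 and 6515 in OE, which is 410 and 404 CPM against 216 and 225 CPM. Replicates differed by at most 1.04 times within a condition, and the conditions stood apart. LDHA fell by 0.88 on the log2 scale (standard error 0.0569, edgeR adjusted p = 0.0396), and its mean level was 407 ± 4.66 CPM (SD, n = 2) in the controls, 1.84 times the 221 ± 6.31 CPM (SD, n = 2) of OE. The adjusted p passed 0.05 but not the 0.01 of the study. In edgeR it was 0.296 with replicate number as a block and 0.0546 with the strongest transcript in place of the sum. When any 1 of the 4 libraries was left out, the log2 fold change lay between -0.91 and -0.85. DESeq2 called LDHA at the stricter threshold (adjusted p = 6.57e-63). In every library at least 99% of its counts were on 1 transcript, ENST00000422447.3.

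LDHB, the heart-type subunit, had 1312 and 1507 counts in the control libraries, against 1335 and 1374 in OE. After normalization both OE libraries lay below both vector control libraries, at 60.2 ± 5.51 CPM (SD, n = 2) against 50.4 ± 4.03 CPM (SD, n = 2), and the log2 fold change was -0.26 (standard error 0.123, edgeR adjusted p = 0.338). LDHA made up 83.3% and 81.2% of the LDHA and LDHB counts per kb of transcript in the vector control, and 73.6% and 76.6% in OE. The share of LDHA was thus lower by 7.13 percentage points in OE, with no overlap between the conditions and a pooled SD of 1.85 points. The summed level of both genes was 467 ± 0.842 CPM (SD, n = 2) over the control libraries against 271 ± 2.26 CPM (SD, n = 2) in OE.

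The hexokinases, which phosphorylate glucose on entry and hold it in the cell, were called in opposite directions by DESeq2 and by edgeR not at all. HK2, the inducible isozyme bound to mitochondria, lies on chromosome 2 (75061254 to 75120486, plus strand, GRCh37). HK2 had 1997 and 2000 counts in the control libraries, against 3659 and 4380 in OE. The replicates lay close together in both conditions, at 85.4 ± 0.456 CPM (SD, n = 2) and 149 ± 3.96 CPM (SD, n = 2), with no overlap. Its log2 fold change was 0.80 (standard error 0.0729, edgeR adjusted p = 0.0615), and DESeq2 called it (adjusted p = 7.69e-32). At least 97.9% of its counts were on 1 transcript in every library.

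HK1, the widely expressed isozyme (chromosome 10, 71029740 to 71161640, plus strand), had 5089 and 5440 counts in the control libraries, against 3444 and 4472 in OE. Both OE libraries were lower, at 137 and 155 CPM against 219 and 232 CPM. The log2 fold change was -0.62 (standard error 0.0926, edgeR adjusted p = 0.0893), and the DESeq2 adjusted p was 1.25e-08. With its strongest transcript in place of the sum the log2 fold change of HK1 was -0.49 (edgeR adjusted p = 0.984). Of the counts on the 2 genes together, HK2 took 28.2% and 26.9% in the vector control and 51.5% and 49.5% in OE. Since 51.6% of the HK1 counts lay on a transcript without a length in the annotation, no level per kb was set between the isozymes, and this change in share is a change within each library's own counts. Summed over HK1 and HK2, the level was 311 ± 8.67 CPM (SD, n = 2) over the control libraries against 295 ± 16.3 CPM (SD, n = 2) in OE, and the summed values overlapped. With the copy of HK2 described next added, the sum was 379 and 384 CPM in the controls and 398 and 424 CPM in OE, without overlap.

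Many of these genes have processed pseudogenes, intronless copies of the mRNA elsewhere in the genome, whose reads can be hard to tell from those of the gene. Of the rows in the table, 107 are named as pseudogenes of 15 members, 56 of them had counts, and 12 had a mean of at least 500 counts. The copies were picked by name and size after their values were seen. LDHAP4, on chromosome 9 (14921335 to 14922332, minus strand, GRCh37), had 7914 and 8501 counts in the control libraries, against 5049 and 5847 in OE, nearly as many as LDHA. HK2P1, on chromosome X (79827370 to 79830106, minus strand), had 1758 and 1592 counts in the control libraries, against 2883 and 3435 in OE. Each copy differed between the conditions in the direction of its gene, the log2 fold change being -0.80 (standard error 0.0634, edgeR adjusted p = 0.0521) for LDHAP4 and 0.71 (standard error 0.0954, edgeR adjusted p = 0.0799) for HK2P1.

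The printed sequences show how alike gene and copy are. Each pair is 1 stretch of 90 bases inside a coding exon of the gene and the aligned stretch of its copy, 5′ to 3′, read from GRCh37, with the bases that differ in capitals. LDHA lies at chr11:18422384-18422473 (plus) and LDHAP4 at chr9:14921999-14922088 (minus), with 8 differences. HK2 lies at chr2:75107392-75107481 (plus) and HK2P1 at chrX:79828752-79828841 (minus), with 4 differences. PKM lies at chr15:72501143-72501232 (minus) and PKMP1 at chr1:115079181-115079270 (plus), with 4 differences.
LDHA: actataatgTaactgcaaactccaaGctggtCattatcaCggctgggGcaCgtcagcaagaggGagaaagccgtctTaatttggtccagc
LDHAP4: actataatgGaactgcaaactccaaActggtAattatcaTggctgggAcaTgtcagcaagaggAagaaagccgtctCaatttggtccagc
HK2: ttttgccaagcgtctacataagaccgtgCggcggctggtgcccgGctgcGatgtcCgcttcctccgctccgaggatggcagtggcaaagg
HK2P1: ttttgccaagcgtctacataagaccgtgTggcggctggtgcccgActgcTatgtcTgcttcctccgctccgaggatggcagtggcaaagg
PKM: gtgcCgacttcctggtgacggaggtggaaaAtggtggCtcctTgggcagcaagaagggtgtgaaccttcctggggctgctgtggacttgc
PKMP1: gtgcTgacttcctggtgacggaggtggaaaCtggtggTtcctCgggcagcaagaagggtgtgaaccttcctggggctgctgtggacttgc

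Over the whole alignment with the gene's canonical transcript, LDHAP4 matched LDHA at 95.7% of 998 aligned positions, with 42 mismatches and a longest identical run of 107 bases. HK2P1 matched HK2 at 96% of 2755 positions with a longest run of 183 bases, and PKMP1 matched PKM at 90% of 1591 positions with a longest run of 74 bases. The highest identities were those of BNIP3P1 with BNIP3 and TPI1P1 with TPI1, both 98.1%. The reads were 150 bases long and paired. Of the 12 copies, HK2P1 and TPI1P1 (longest run 161 bases) had an identical run longer than a read, and in the other 10 a full-length read from the gene within the alignment meets at least 1 differing base. How the authors' counting treated reads that fit both places nearly equally well is not given in the sources used here, so the level of each gene with a large copy is uncertain.

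The counts on a gene and its copies can also be read together. Such a sum is free of the split between them only if every read was counted a single time on these rows, which is not known. For GAPDH the sum still differed between replicates, with 39095 and 60131 counts in the controls and 31539 and 52803 in OE. For PKM it was 33776 and 36495 in the controls and 25617 and 27152 in OE. Named pseudogenes held from 46.3% to 49.7% of the LDHA counts with copies, from 44% to 46.8% of those of HK2, from 28.4% to 34.2% of those of PKM, from 60.3% to 89.2% of those of GAPDH and from 70.4% to 91.9% of those of ENO1. With the copies added to each gene, an alternative chosen after the values were seen, the log2 fold change was -0.83 for LDHA (edgeR adjusted p = 0.0322), 0.76 for HK2 (edgeR adjusted p = 0.0611) and -0.62 for PKM (edgeR adjusted p = 0.0686). LDHA, HK2 and PKM thus kept direction and near size. For LDHB, whose copies held from 83.2% to 85.3% of its counts with copies, the value with copies was -0.29 with a standard error of 0.0505, against 0.123 for the gene alone (edgeR adjusted p = 0.104 with copies). Shares between isozymes depend on the copies. With them, LDHA took 66.5% and 66.9% of the LDHA and LDHB counts in the controls and 57.6% and 58.2% in OE, so the share was smaller throughout and again lower in OE. HK2 with its copy took 42.5% and 39.8% of the HK1 and HK2 counts in the controls and 65.5% and 63.6% in OE. Of the 12 large copies, 10 had the sign of their gene and 11 were negative. The exceptions in sign were BNIP3P1 and PGK1P2, whose genes BNIP3 and PGK1 had log2 fold changes of 0.05 and 0.58.

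**Figure D3:**
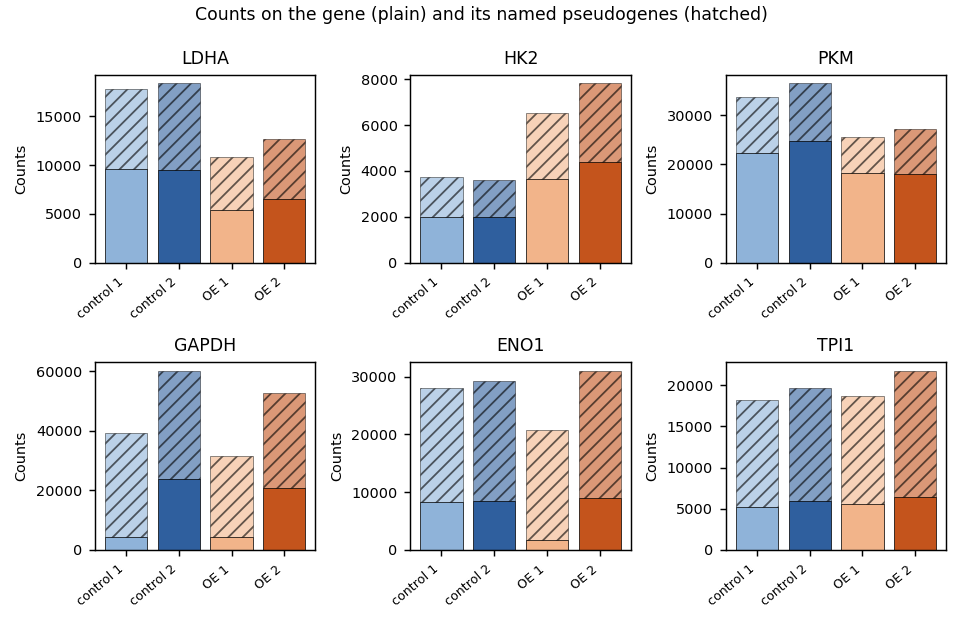
Counts on 6 genes (plain bars) and on all their named pseudogenes (hatched, stacked on top) in each library. In LDHA, HK2 and PKM the gene and its copies differed between the conditions the same way, while in GAPDH and ENO1 the gene's own counts changed several-fold between the libraries of at least 1 condition and those of the copies did not.

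The regions just upstream of LDHA and HK2 are shown because these genes had the smallest p in each direction and because both are textbook HIF targets. RefSeq promoter windows (GRCh38.p14) were given for 33 members, in 60 windows, and none was given for SLC2A3, SLC16A1, BNIP3L, NDRG1 and VEGFA. The core of the hypoxia response element was searched as ACGTG or GCGTG on both strands, where the palindrome CACGTG counts on each. It was present in 39 of the 60 member windows (65%) and in 48.4% of all 35116 windows, and 29 of the 33 members (87.9%) had it in at least 1 window against 52.4% of all genes with a window. Of the members described in full for their p, each of the 8 with a window had it in at least 1, HK2 and PFKM that were higher in OE and HK1, ALDOA, ALDOC, PKM, LDHA and EGLN1 that were lower. By window, it was in 4 of 9 (44.4%) of those higher in OE and in 10 of 15 (66.7%) of those lower. HK1 and PFKM each had it in 2 of 7 windows. A gene with more windows has more chances of a match, which the shares by gene do not allow for. A match is a description and says nothing of binding. The 250 bases before the first listed start site are given 5′ to 3′ with the matches in capitals, for LDHA at chr11:18394313-18394562 (plus) and for HK2 at chr2:74833877-74834126 (plus), and each holds 3 separate stretches. Which start site these cells used was not examined.
LDHA: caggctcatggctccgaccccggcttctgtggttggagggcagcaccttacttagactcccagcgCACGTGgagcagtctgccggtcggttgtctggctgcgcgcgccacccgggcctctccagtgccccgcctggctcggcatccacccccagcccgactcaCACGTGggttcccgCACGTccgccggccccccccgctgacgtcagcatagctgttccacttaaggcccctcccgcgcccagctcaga
HK2: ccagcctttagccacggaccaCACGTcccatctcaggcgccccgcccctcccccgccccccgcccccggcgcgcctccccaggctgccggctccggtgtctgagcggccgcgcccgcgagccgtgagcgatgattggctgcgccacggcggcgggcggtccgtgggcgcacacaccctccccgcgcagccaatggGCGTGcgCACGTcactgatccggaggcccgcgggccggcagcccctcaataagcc

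Among the other upper steps, the aldolases, which split the 6-carbon sugar, were lower and PFKM was higher. ALDOA (chromosome 16, 30075485 to 30081778, plus strand) had 3698 and 3822 counts in the control libraries, against 1940 and 3164 in OE, or 159 and 163 CPM against 77.3 and 109 CPM. The conditions did not overlap, but the OE libraries were 1.42 times apart. The log2 fold change was -0.78 (standard error 0.196, edgeR adjusted p = 0.158), and the DESeq2 adjusted p was 0.00159. With its strongest transcript, ENST00000564521.2, in place of the sum the sign of ALDOA turned (log2 fold change 1.69). ALDOC, the brain-type aldolase (chromosome 17, 26900133 to 26903966, minus strand), had low counts of 80 and 72 in the vector control and 38 and 59 in OE, the log2 fold change being -0.87 (standard error 0.249, edgeR adjusted p = 0.19). PFKM, the muscle-type phosphofructokinase (chromosome 12, 48498922 to 48540187, plus strand), had 819 and 941 counts in the control libraries, against 1223 and 1369 in OE, the log2 fold change being 0.35 (standard error 0.11, edgeR adjusted p = 0.208). With its strongest transcript in place of the sum it was 0.0242 (edgeR adjusted p = 0.995). PFKM shares exonic bases with SENP1 on the opposite strand, which had from 1064 to 1326 counts. Reads of overlapping genes cannot be told apart here, since the use of strand is not given in the sources used.

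The liver-type PFKL had a log2 fold change of -0.28 and the platelet-type PFKP one of -0.08, neither with an unadjusted p under 0.05. The counts of the 3 phosphofructokinases together came to 113 ± 7.04 CPM (SD, n = 2) over the control libraries against 114 ± 5.28 CPM (SD, n = 2) in OE. PFKM took 33.2% of these counts on average in the vector control and 42.1% in OE. Per kb of transcript the PFKM share overlapped, from 30.8% to 41.3% in the vector control and from 36.6% to 44.5% in OE. GPI, which turns glucose 6-phosphate into fructose 6-phosphate, had 643 and 1848 counts in the control libraries, against 2303 and 2686 in OE, and its vector control libraries were 2.85 times apart. TPI1, which interconverts the triose phosphates, was at 224 and 251 CPM in the vector control and at 222 CPM in both OE libraries (log2 fold change -0.10, edgeR adjusted p = 0.568).

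In the lower steps, PKM, the pyruvate kinase that makes the last ATP of the pathway, was lower in OE. PKM (chromosome 15, 72491370 to 72524160, minus strand) had 22239 and 24760 counts in the control libraries, against 18351 and 18068 in OE. The levels were 1004 ± 69.8 CPM (SD, n = 2) and 678 ± 75.4 CPM (SD, n = 2), with no overlap. The log2 fold change was -0.57 (standard error 0.106, edgeR adjusted p = 0.113), and the DESeq2 adjusted p was 2.72e-06. Per kb of transcript, PKM had the highest median level over the 4 libraries of all 38 members (344 CPM per kb), where HK1 and PDK3 could be placed only in part for want of transcript lengths. This order is of the gene rows alone: with named copies added, GAPDH had from 31539 to 60131 counts and PKM from 25617 to 36495, and GAPDH had more in every library. Transcript ENST00000564440.1 held from 81.7% to 87.1% of its counts in every library.

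ENO2, the neuronal enolase, was at 65.2 and 65.4 CPM in the vector control and at 59.9 and 63.7 CPM in OE, a log2 fold change of -0.08 (edgeR adjusted p = 0.664). The other 4 enzymes of the lower steps had libraries of the same condition that lay several-fold apart. ENO1 had 8314 and 8536 counts in the control libraries, against 1685 and 8956 in OE. GAPDH had 4217 and 23781 counts in the control libraries, against 4195 and 20949 in OE, with one low library in each condition. PGK1 had 396 and 2743 counts in the control libraries, against 2548 and 2834 in OE, and PGAM1 had 79 and 4477 in the vector control and 2364 and 4239 in OE. The log2 fold change of GAPDH was -0.42 (standard error 1.14), and it was 1.29 without the second control library and 0.28 without the first OE library. In PGK1 and PGAM1 it was the first vector control library that stood low, by 6.86 and 56.1 times against the second. The largest copies of ENO1, GAPDH and PGK1 did not follow. Over the 4 libraries ENO1P1 had from 18593 to 22040 counts, GAPDHP1 from 26038 to 34708 and PGK1P2 from 767 to 913. The smaller ENO1P4 did vary, with 22 and 505 counts in the control libraries and 493 and 17 in OE. The copies of PGAM1 together had at most 31 counts in a library, too few to compare. With its copies added, ENO1 had a log2 fold change of -0.37 (edgeR adjusted p = 0.268), in place of -0.93 for the gene alone, which was -0.22 without the first OE library.

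GAPDHP1, on chromosome X (39646386 to 39647390, minus strand, 95.9% identical to GAPDH over the alignment), held more counts than GAPDH in every library. GAPDHP1 had 33370 and 34708 counts in the control libraries, against 26038 and 30497 in OE, or 1433 and 1477 CPM against 1038 and 1054 CPM. These replicates lay close together and the conditions apart, the log2 fold change being -0.48 (standard error 0.039, edgeR adjusted p = 0.0528).

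Replicates that lie far apart were common among these genes. A ratio over 2 between the libraries of a condition was found in 13 members, and in 11 of the 33 members with a mean of at least 4 CPM (33.3%), beside 1645 of 14023 genes at that level (11.7%). No test was made of that difference. The transcript with most counts was the same in all 4 libraries in 27 of 38 members, LDHA, HK2 and PKM among them, and differed between libraries in 11 (ALDOA, EGLN3, ENO2, GPI, HK1, NDRG1, PFKM, PGK1, SLC16A1, SLC16A3 and VEGFA). HK1 had 99.2% and 100% of its counts on ENST00000448642.2 in the first vector control and the second OE library, and 98.5% and 97.5% on ENST00000359426.6 in the other two. PGK1 had all counts of the first vector control library on ENST00000537456.1 and all counts of the other 3 libraries on ENST00000373316.4. ALDOA had 90.2% on ENST00000338110.5 in the first vector control library and at most 3.61% there in the others. In 9 of the 11 genes libraries of the same condition differed in their leading transcript. The exceptions were ENO2 and EGLN3, whose leading transcript differed by condition. ENO2 had 937 and 1536 counts on ENST00000535366.1 in the control libraries and 0 in both OE libraries, where ENST00000541477.1 held 1504 and 1832, but the first control library also had 575 counts on the latter. EGLN3 had 48 and 49 counts on ENST00000547327.2 in the controls against 21 and 62 in OE. Whether such placements bear on the gene sums was not tested.

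**Figure D4:**
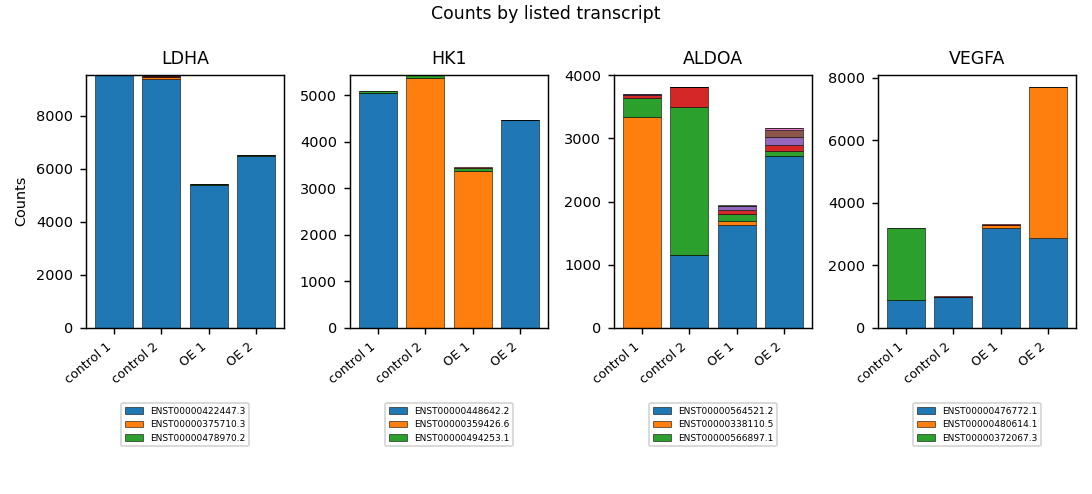
Counts of LDHA, HK1, ALDOA and VEGFA in each library, coloured by listed transcript (the 3 with most counts are named under each panel). LDHA sat on 1 transcript throughout, whereas the leading transcript of HK1, ALDOA and VEGFA changed between libraries of the same condition.

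The transporters showed small differences. SLC2A3, the high-affinity glucose transporter of neurons (chromosome 12, 8071826 to 8171603, minus strand), had 1163 and 1267 counts in the control libraries, against 1535 and 1939 in OE. It was at 51.9 ± 2.81 CPM (SD, n = 2) and 64.1 ± 4.15 CPM (SD, n = 2), and the conditions did not overlap (log2 fold change 0.30, standard error 0.104, edgeR adjusted p = 0.233). SLC2A1, the common glucose transporter, was at 92.5 and 93.7 CPM in the vector control and at 120 and 104 CPM in OE, a log2 fold change of 0.26 (standard error 0.104, edgeR adjusted p = 0.274). The summed level of both transporters was 145 ± 3.63 CPM (SD, n = 2) against 176 ± 6.96 CPM (SD, n = 2). Of the lactate carriers, SLC16A1 overlapped between the conditions (log2 fold change 0.03), and SLC16A3 was at 22.3 CPM in the first OE library and from 40.9 to 48.5 CPM in the other 3. The antisense gene SLC16A1-AS1, which shares 231 exonic bases with SLC16A1, had 124 and 122 counts in the control libraries, against 277 and 364 in OE.

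The PDK kinases inhibit pyruvate dehydrogenase and so limit the conversion of pyruvate to acetyl-CoA in the mitochondria. PDK1 had 663 and 679 counts in the control libraries, against 742 and 1388 in OE, so only the second OE library stood well above the controls (log2 fold change 0.44, edgeR adjusted p = 0.439). PDK3 had at most 78 counts, with 14 and 68 in OE. PDK1-AS1, an antisense gene that shares 445 exonic bases with PDK1, had 46 and 52 counts in the control libraries, against 105 and 112 in OE. Other antisense genes named after members had fewer counts. HIF1A-AS1 had 25 and 16 against 30 and 12, and HIF1A-AS3 had 5 and 6 against 6 and 2. ENO1-AS1 had 0 and 4 against 0 and 11, and P4HA2-AS1 had no counts.

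None of the HIF subunits passed the test. HIF1A (chromosome 14, 62162231 to 62214977, plus strand) had 3939 and 9351 counts in the control libraries, against 7972 and 6408 in OE. The vector control libraries were 2.35 times apart and enclosed both OE libraries, and the log2 fold change was -0.07 (standard error 0.486, edgeR adjusted p = 0.952). It was 0.67 without the second control library and 0.16 without the second OE library, so it has no stable sign. EPAS1, which encodes HIF2 alpha and is known for its part in sympathetic cells (chromosome 2, 46520806 to 46613836, plus strand), had 17681 and 15780 counts in the control libraries, against 19828 and 21658 in OE. Its levels overlapped, from 672 to 790 CPM, the log2 fold change being 0.11 (standard error 0.0812, edgeR adjusted p = 0.528). ARNT, the beta subunit (chromosome 1, 150782189 to 150849184, minus strand), had 1757 and 1760 counts in the control libraries, against 1556 and 1927 in OE. ARNT was at 75.2 ± 0.39 CPM (SD, n = 2) and 64.3 ± 3.26 CPM (SD, n = 2), with both OE libraries lower (log2 fold change -0.23, standard error 0.0883, edgeR adjusted p = 0.272).

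Of the oxygen sensors and feedback genes, EGLN1, the main HIF prolyl hydroxylase (chromosome 1, 231499497 to 231558033, minus strand), had 7168 and 7368 counts in the control libraries, against 5841 and 7696 in OE. It was at 311 ± 4.06 CPM (SD, n = 2) and 249 ± 23.5 CPM (SD, n = 2) without overlap, a log2 fold change of -0.32 (standard error 0.089, edgeR adjusted p = 0.184). EGLN3, a hydroxylase whose gene is itself induced by HIF, had 80 and 81 counts in the control libraries, against 80 and 146 in OE. KDM3A, a histone demethylase induced by low oxygen, ranged from 28.2 to 31.8 CPM over the 4 libraries.

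The 9 other hypoxia-response genes included the largest fitted values in both directions, and none of these had an unadjusted p under 0.05. P4HA1, a subunit of collagen prolyl hydroxylase, had 1474 and 247 counts in the control libraries, against 331 and 366 in OE. Its log2 fold change of -1.51 (standard error 0.917) rested on the first vector control library, and it was 0.29 without that library. VEGFA, the angiogenic growth factor, had 3187 and 1008 counts in the control libraries, against 3303 and 7711 in OE (log2 fold change 1.15, standard error 0.712, edgeR adjusted p = 0.439). The log2 fold change of VEGFA was 2.2 without the first control library, 0.53 without the second and 0.55 without the second OE library. In VEGFA, transcript ENST00000480614.1 alone held 4840 counts in the second OE library and at most 93 in the others. NDRG1, a stress-response gene, had 440 and 915 counts in the control libraries, against 1078 and 1949 in OE, without overlap, and a log2 fold change of 0.93 (standard error 0.456, edgeR adjusted p = 0.349).

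CA9, the carbonic anhydrase used as a marker of hypoxic tumour cells, had 4 and 17 counts in the control libraries, against 11 and 8 in OE. It was the lowest of the 38 genes in CPM, and its libraries overlapped between the conditions (log2 fold change -0.33, standard error 0.85, edgeR adjusted p = 0.863). ADM, which encodes adrenomedullin, had 69 and 188 counts in the control libraries, against 105 and 115 in OE. BNIP3 and BNIP3L, which promote the removal of mitochondria, had log2 fold changes of 0.05 and -0.07, P4HA2 one of -0.09 and ANKRD37 one of -0.36, and among these 4 only ANKRD37 did not overlap between the conditions.

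Further genes of glucose metabolism and the HIF pathway were read from a list of 62 symbols that are no members, of which 59 were in the table and 56 were tested. Of these, 0 passed the study's thresholds in edgeR, 1 passed at an adjusted p under 0.05 (STC2), and 18 (32.1%, background 20.8%) had an unadjusted p under 0.05, 9 in each direction (16.1% each, background 10.1% higher and 10.7% lower). DESeq2 called 10 (17.9%, background 8.77%), 6 higher and 4 lower. The list was chosen with earlier results of these data known, and nothing particular to it is read from these shares. The median log2 fold change of the 56 was -0.06, with 24 positive and 32 negative.

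The genes with the smallest p per direction are described, 5 higher and 4 lower. STC2, a secreted glycoprotein induced by several stresses, rose from 451 and 430 counts in the vector control to 1939 and 2517 counts in OE, a log2 fold change of 2.12 (standard error 0.114, edgeR adjusted p = 0.0321). Without any 1 of the 4 libraries the adjusted p of STC2 was between 0.0667 and 0.107, and its log2 fold change was at least 2.04. With its strongest transcript in place of the sum the edgeR adjusted p was 0.0546, and with replicate number as a block it was 0.286. GYS1, the glycogen synthase of muscle and most tissues, had 373 and 380 counts against 1007 and 1308 (log2 fold change 1.41), and PCK2, the mitochondrial enzyme that makes phosphoenolpyruvate, had 432 and 372 against 1061 and 1312 (log2 fold change 1.35). HKDC1, a further hexokinase, had 54 and 37 counts against 236 and 239 (log2 fold change 2.18), and MXI1, a repressor of the MYC network, 1754 and 1674 against 2788 and 3249 (log2 fold change 0.61). All 5 were higher in both OE libraries than in both vector control libraries.

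On the lower side LOX, BPGM, CA12 and TXNIP are given. LOX, which cross-links collagen, had 538 and 614 against 343 and 337 (log2 fold change -0.96), and BPGM, which makes 2,3-bisphosphoglycerate, 648 and 674 against 463 and 518 (log2 fold change -0.64). TXNIP, a glucose-sensitive arrestin that limits glucose uptake, had 8703 and 6801 counts against 1762 and 3975 (log2 fold change -1.68), and CA12, a carbonic anhydrase, 219 and 216 CPM against 173 and 182 CPM. None of these 4 had an adjusted p under 0.05 in edgeR, and DESeq2 called all of them but CA12. Of further hexokinase genes, HKDC1 was thus higher in both OE libraries, as HK2 was, and HK3 had 3 and 0 counts in the control libraries, against 16 and 36 in OE.

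**Figure D5:**
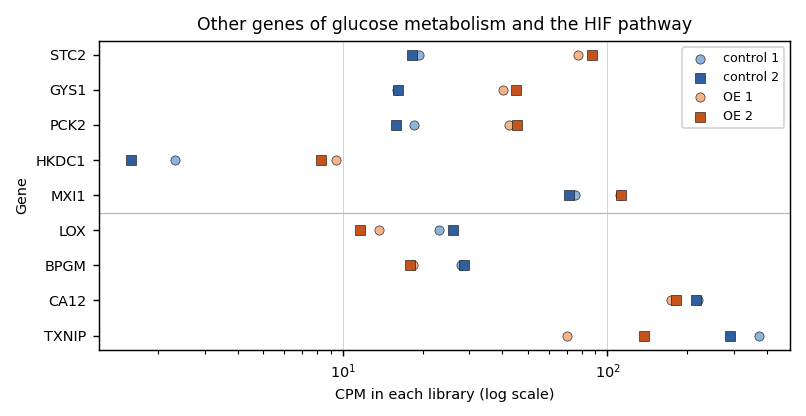
Level in each library, in CPM on a log scale, of 9 listed genes of glucose metabolism and the HIF pathway that are among the smallest p per direction, higher in OE above the grey line and lower below it. In all 9 the 2 OE libraries lay on one side of the 2 vector control libraries.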

How the data were processed

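Reads of TruSeq RNA libraries were trimmed by the authors with Trimmomatic and aligned with Bowtie2 to hg19. The deposited values are raw counts, whole numbers for each Ensembl transcript, with no scaling. The submitters' processing notes list Bowtie2 2.0.4, Picard 2.21.6, StringTie 2.1.6 and DESeq2 without a role. The counting tool, the annotation release and the use of strand are not given in the sources used here.

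The deposited counts were summed per gene, and 20528 genes passed filterByExpr. TMM normalization and the test used edgeR 4.0.16 (R 4.3.3) with its quasi-likelihood test, 2 OE against 2 vector control libraries, with Benjamini-Hochberg adjustment over all genes tested. The common dispersion was 0.122. The study's methods name DESeq2, which was run as an alternative (DESeq2 1.42.0), with limma-voom (limma 3.58.1). Scripts were tested on simulated counts with a dispersion below the common dispersion of these data, which checks the scripts and not the calls made here. The study's thresholds were kept, 0.01 for the adjusted p and 0.5 for the size of the log2 fold change. Counts of 0 were read as up to 3 counts, and limits cover counting error only, since reads carry no molecular identifiers.

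The members and lists were chosen with earlier results of these data known. Named in full were members with an unadjusted p under 0.05 and no overlap between conditions, and HIF1A, EPAS1 and ARNT. Other pathway genes were named as the 5 with the smallest p per direction at a mean of at least 1 CPM, and the result of 1 gene under this rule is not reported here. Other members were given by ranges, and values for members, copies and antisense genes outside this rule were chosen after they were seen. Replicate numbers were not used to pair the libraries in the reported fit, since no label states a pairing. The deviations of same-numbered libraries had a correlation of -0.0329 over 14023 genes, which does not show how the libraries were prepared.

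Positions came from the lifted GENCODE annotation of GRCh37 and promoters from RefSeq (GRCh38.p14). Lengths were found for 140 of 148 transcripts with counts, with 10.7% of the counts on transcripts of the same version. Gene and copy transcripts were aligned locally with Biopython 1.88.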

Additional observations from a re-analysis of the deposited data

How the results depend on the processing

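Of 252 fitted log2 fold changes (18 genes under 14 alternatives), 239 kept their direction and their side of the study's thresholds, 5 passed the thresholds (DESeq2: LDHA, HK1, HK2, ALDOA and PKM) and 8 changed direction. ALDOA was 1.69 when its strongest transcript stood for the gene, which left out most of its counts in the control libraries. HIF1A was 0.0203 with limma-voom and 0.0318 with a replicate block. Leaving out 1 library moved HIF1A from -0.57 to 0.67, GAPDH from -1.84 to 1.29 and P4HA1 from -2.30 to 0.29. It moved ENO1 from -2.42 to -0.22 and VEGFA from 0.53 to 2.2, without a change of direction. PFKM was 0.0242 with its strongest transcript. LDHA stayed between -0.91 and -0.83 and HK2 between 0.76 and 0.84 under all 14.

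Members called were 0 in the edgeR and limma-voom fits, 5 in DESeq2, 1 at an adjusted p under 0.05 and 9 at an unadjusted p under 0.05, and over all genes DESeq2 called 1800 where edgeR called 0. The median log2 fold change of the members ranged from -0.23 without the first vector control library to 0.0389 without the second. Other pathway genes called were 10 in DESeq2 and 18 at an unadjusted p under 0.05. The replicate block gave 0 members called and a median of -0.08, and it changed no call at the study's thresholds. The adjusted p of LDHA was 0.296 under the block and 0.0546 with the strongest transcript, against 0.0396 in the reported fit. For STC2 these were 0.286, 0.0546 and 0.0321. The share of ALDOA in ALDOA and ALDOC differed by 0.585 percentage points per kb and by 0.107 in raw counts. The causes were not tested. For genes whose replicates lie several-fold apart, such as GAPDH, ENO1 and VEGFA, the spread between 2 libraries limits what can be seen, and for CA9 so do its low counts.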
